A study of Mus musculus with 6 samples.

Results

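The genes of proximal T cell receptor signalling were followed here in Treg, the regulatory T cells, sorted from mouse spleen. The set holds 9 genes of the 36811 in the expression table, chosen by name and function: the receptor's CD3 chains Cd3e, Cd3d, Cd3g and Cd247, the kinases Lck, Fyn and Zap70, and the adaptors Lat and Lcp2. Each symbol matched 1 Ensembl gene, and all 9 passed the filter on low values, an average of 1 FPKM or more (fragments per kilobase of transcript, scaled to library size) over the libraries. RNA was sequenced from 6 libraries of EGFP-positive, FACS-sorted cells of C57BL/6 mice aged 18 to 21 weeks, after enrichment of CD4+ T cells. The 3 libraries labelled cKO have the genotype Bach2fl/fl Foxp3EGFP-Cre-ERT2, with floxed alleles of the transcriptional repressor Bach2. The 3 labelled WT are Bach2+/+ Foxp3EGFP-Cre-ERT2. Both groups thus carry the same EGFP and inducible Cre recombinase at Foxp3, the gene of the Treg-defining transcription factor. The tamoxifen treatment that Cre-ERT2 needs is not given in the sources used here. Whether libraries of the same label stem from different mice is not stated, so each p-value refers to the spread among these libraries, which may be technical. Values of a group are given in the order of replicates 1, 2 and 3 throughout.

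The T cell receptor binds antigen through its alpha and beta chains, which have almost no tail inside the cell and signal through the CD3 dimers and the zeta chain. The kinase Lck, helped by Fyn, phosphorylates tyrosine motifs in those chains. Zap70 docks on the phosphorylated motifs and in turn phosphorylates the scaffold Lat and the adaptor Lcp2 (SLP-76), on which calcium, Ras and NF-kB signalling is assembled. Treg need signals through this receptor to keep their activated, suppressive state. The comparison asked whether transcripts of this machinery differ between Treg labelled as having floxed or intact Bach2.

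The sort and labels were checked on a few genes. Cd4 lay between 318 and 474 FPKM and Cd3e between 312 and 488 FPKM, while Cd8a, the defining chain of the CD8 coreceptor, reached at most 0.531 FPKM and was listed at 0 in cKO 2. The other CD8 chain, Cd8b1, stood at 18.8 to 22.4 FPKM in the 6 libraries, above Foxp3 in each. Foxp3 lay between 5.16 and 9.44 FPKM, and the sum of 5 Treg markers (Foxp3, Il2ra, Ctla4, Ikzf2 and Tnfrsf18) between 1788 and 2970 FPKM. Most of that sum was Tnfrsf18, at 1580.6 to 2722.5 FPKM. Ctla4 averaged 121.61, Il2ra 52.56 and Ikzf2 20.245 FPKM over the libraries. Bach2 stood at 7.88, 9.19 and 6.44 FPKM in the cKO libraries, against 3.29, 8.25 and 4.80 FPKM in the WT libraries, so the libraries labelled cKO did not have less of it. Gene-level values cannot show the loss of single exons, and which exons are floxed is not given in the sources used here, so every direction below rests on the labels. The number of fragments sequenced is not stated. The steps between the lowest FPKM values put the scale between about 3050000 and 5020000 fragments a library. At that scale about 140 fragments or more lay behind each value of the 9 genes, counted with the full length of each gene's shortest annotated transcript. Whether the FPKM were made with that length is not given, so this is an estimate and not a lower bound.

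None of the 9 genes differed between the groups by the test across all genes. In limma on log2(FPKM + 1), 0 of 9 passed a Benjamini-Hochberg adjusted p of 0.05, with a smallest adjusted p of 0.925, and 0 of 9 reached an unadjusted p of 0.05. Over the 11979 genes tested, 0.025% passed the adjusted threshold (0.00835% higher and 0.0167% lower in cKO) and 5.37% the unadjusted one (3.59% higher and 1.78% lower). The log2 difference, cKO minus WT, was above 0 in 7 of the 9 and below 0 in Zap70 and Fyn. It was above 0 in 6587 of the 11979 genes tested and in 925 of the 1416 genes averaging 100 FPKM or more. In the 9 genes it ran from -0.25 to 0.32 with a median of 0.17, beside a median of 0.03 over all genes tested and of 0.08 over those 1416 genes. The 95% intervals, each including 0, bound what could have been missed. The narrowest was that of Cd247, from -0.10 to 0.44, and the widest that of Fyn, from -1.20 to 0.70. Zap70, with a difference of -0.0033, had an interval from -0.32 to 0.31.

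**Figure D1:**
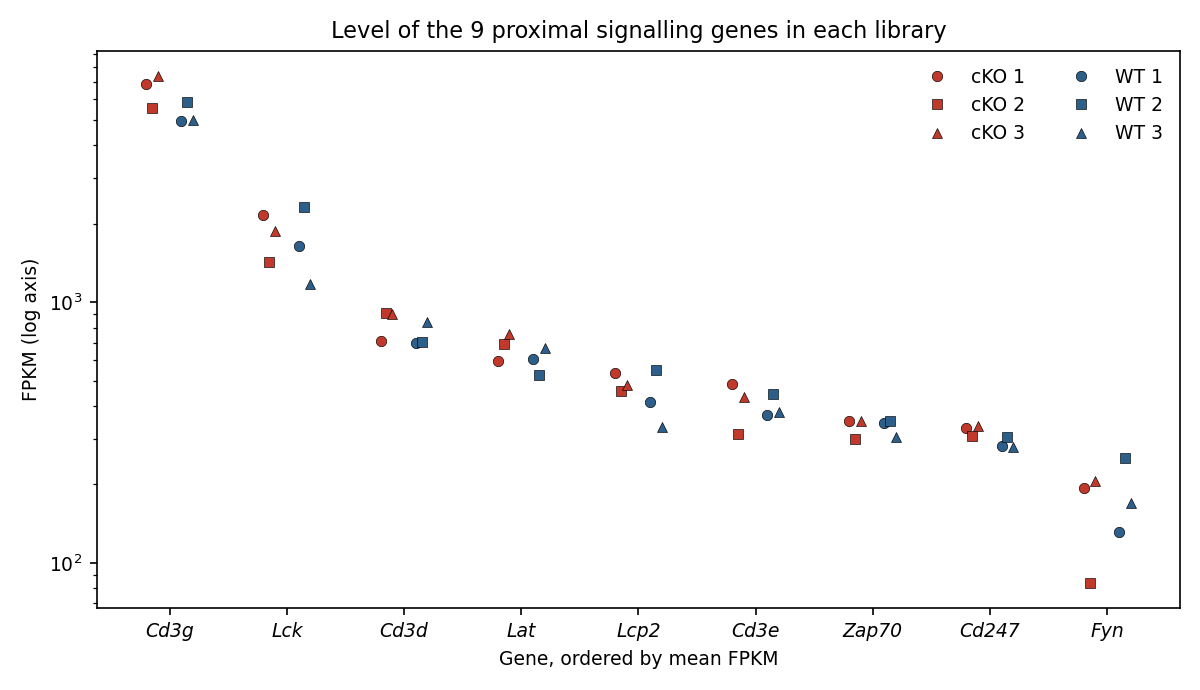
FPKM (log axis) of the 9 proximal signalling genes, ordered by mean level. Each point is 1 library, red for cKO and blue for WT, with the symbol giving the replicate number. Cd3g lies above all others in every library, and the red and blue points overlap in each gene except Cd247, where the lowest cKO value (308 FPKM) is just above the highest WT value (305 FPKM).

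The levels spanned a wide range. FPKM is per length, but the length used for each gene is not given in the sources used here, so the order between genes depends on it. Cd3g was first with a mean of 5934 FPKM over the 6 libraries, the 20th highest row of the table, followed by Lck at 1767, Cd3d at 794, Lat at 641, Lcp2 at 461, Cd3e at 404, Zap70 at 334, Cd247 at 306 and Fyn at 173 FPKM. Most neighbours in this order kept their places in each of the 6 libraries. The exceptions were Lat over Lcp2, Lcp2 over Cd3e, and Zap70 over Cd247, where the order held in 5 of 6 libraries, so these neighbours did not differ beyond their spread. Cd3g exceeded Lck by 2.52 to 4.25 times within a library.

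The receptor chains came first in the order of signalling. Cd3g, which encodes the gamma chain of the CD3 gamma-epsilon dimer, stood at 6863, 5562 and 7374 FPKM in the cKO libraries, against 4943, 5871 and 4992 FPKM in the WT libraries. The cKO libraries 1 and 3 were the highest, but cKO 2 lay below WT 2, so the groups overlapped. The means were 6600.1 ± 934 and 5269 ± 522 FPKM (SD, n = 3 each), and the log2 difference of 0.32 with a standard error of 0.189 had the smallest p of the set (limma, Benjamini-Hochberg adjusted p = 0.925, unadjusted 0.137). The annotation holds 3 transcripts of Cd3g, from 412 to 2539 bases. How transcripts were combined into a gene's FPKM is not given in the sources used here, so the distance between Cd3g and the other chains depends on that step.

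Cd247 encodes the zeta chain, a homodimer with most of the receptor's signalling motifs. It stood at 328, 308 and 336 FPKM in the cKO libraries, against 280, 305 and 278 FPKM in the WT libraries. It was the 1 gene of 9 whose groups did not overlap, and 10.7% of all genes tested had groups that did not overlap in either direction (6.96% higher and 3.75% lower in cKO). The gap between cKO 2 and WT 2 was under 3 FPKM, as 307.84 against 305.11. The means of 324 ± 14.3 and 288 ± 15.2 FPKM (SD, n = 3 each) gave a log2 difference of 0.17 with a standard error of 0.114 (limma, adjusted p = 0.925). In the annotation its exons share 3007 bases with Pou2f1 on the opposite strand, which stood at a mean of 7.43 FPKM, and whether strand was used in counting is not given.

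Cd3d, the delta chain, stood at 712, 910.0 and 899 FPKM in the cKO libraries, against 698, 702 and 842 FPKM in the WT libraries. The cKO libraries 2 and 3 were highest, and cKO 1 lay inside the WT range. Cd3e, the epsilon chain shared by both CD3 dimers, stood at 488, 312 and 432 FPKM in the cKO libraries, against 369, 444 and 379 FPKM in the WT libraries. The highest and the lowest Cd3e values were both in libraries labelled cKO, and the log2 difference was 0.03 (limma, adjusted p = 0.997).

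Cd3g, Cd3d and Cd3e lie together on chromosome 9. In RefSeq's GRCm38.p6 annotation (the values were made on an earlier build) Cd3g and Cd3d start 1355 bases apart on opposite strands, and Cd3e starts 27825 bases from Cd3d. The 3 genes differed in level and in which library was highest: cKO 3 for Cd3g, cKO 2 for Cd3d and cKO 1 for Cd3e, with overlapping groups in each. Their promoter sequences are shown as those of neighbouring genes, and that of Lat because it holds the only match to the letters of a Maf core. Each is the 250 bases before the RefSeq start, read 5′ to 3′ on the gene's strand, from GRCm38.p6 at chr9:44980432-44980681 (minus strand) for Cd3g, chr9:44981536-44981785 (plus) for Cd3d, chr9:45009612-45009861 (minus) for Cd3e and chr7:126369569-126369818 (minus) for Lat. Capitals mark CANNTG, the E-box bound by basic helix-loop-helix proteins of lymphocyte development, and TGCTGAG, a core bound by the small Maf proteins that partner Bach2.
Cd3g: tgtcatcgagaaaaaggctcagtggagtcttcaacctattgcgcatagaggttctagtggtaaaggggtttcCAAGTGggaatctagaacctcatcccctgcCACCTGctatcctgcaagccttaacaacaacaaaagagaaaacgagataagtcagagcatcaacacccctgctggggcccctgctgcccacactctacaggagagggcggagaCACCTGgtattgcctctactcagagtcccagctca
Cd3d: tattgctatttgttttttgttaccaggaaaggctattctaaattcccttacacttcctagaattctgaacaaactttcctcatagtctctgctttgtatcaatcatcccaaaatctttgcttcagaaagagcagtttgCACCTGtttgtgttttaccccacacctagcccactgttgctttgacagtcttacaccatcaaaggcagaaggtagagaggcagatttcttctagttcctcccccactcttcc
Cd3e: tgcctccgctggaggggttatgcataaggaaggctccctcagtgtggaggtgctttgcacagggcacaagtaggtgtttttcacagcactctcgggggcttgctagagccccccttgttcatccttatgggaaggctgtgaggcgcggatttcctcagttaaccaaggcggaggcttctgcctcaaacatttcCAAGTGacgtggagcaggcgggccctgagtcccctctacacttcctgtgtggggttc
Lat: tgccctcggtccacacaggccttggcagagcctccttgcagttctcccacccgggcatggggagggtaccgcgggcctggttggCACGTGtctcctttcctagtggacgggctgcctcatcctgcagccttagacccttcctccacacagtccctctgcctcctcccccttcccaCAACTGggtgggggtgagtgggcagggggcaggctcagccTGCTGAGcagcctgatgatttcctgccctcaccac
All 9 genes had such a window, 12 in all, since Zap70 has 3 starts and Lck has 2. Both strands were searched. CANNTG was in 10 of the 12 windows and in 66.2% of the 32851 windows of all genes, and Cd3g held it at 3 places against 1 in Cd3d and 1 in Cd3e. A window of Zap70 also held it at 3 places, and the windows of Lck at 0 and 1. TGANTCA, the AP-1 and Bach core, was in 0 of the 12 and in 6.75% of all windows. TGCTGAG or its complement was in 1 of the 12, that of Lat, and in 6.21% of all. The RUNX letters TGTGGT were in 2 of the 12 (1 of the windows of Lck and 1 of those of Zap70) and in 14% of all, the ETS core GGAA in 10 of the 12 and in 93.4%, and TATAAA in 0 of the 12 and in 12.4%. TGCTGAG and TGANTCA could share bases, but the capitalised matches do not overlap. These are matches of letters only, and whether they bear on the levels or on the spread between libraries was not tested.

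**Figure D2:**
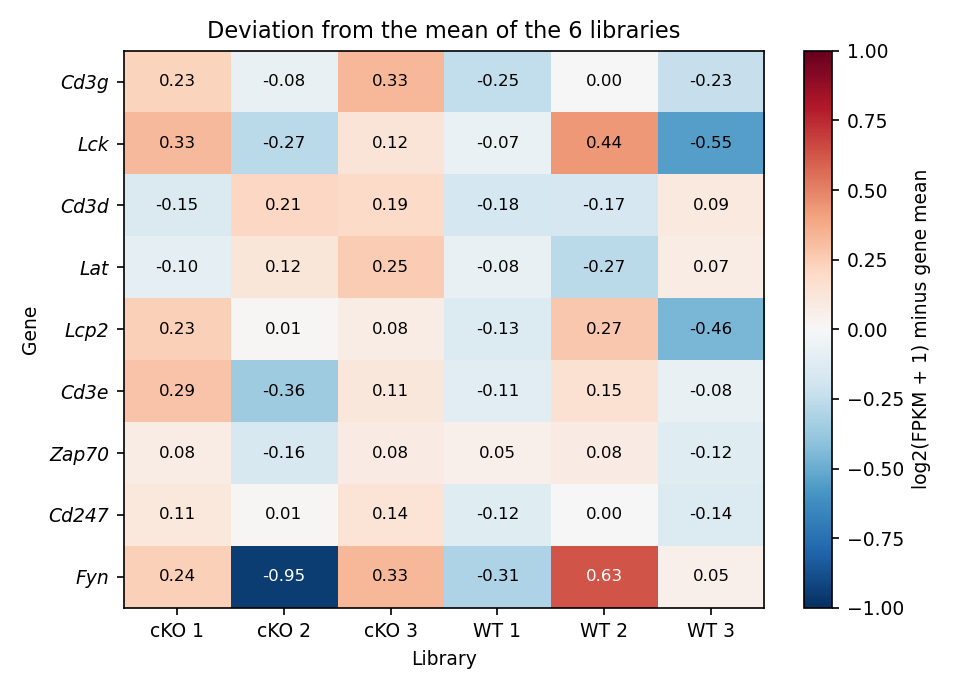
Deviation of log2(FPKM + 1) from each gene's mean over the 6 libraries, with genes as rows and libraries as columns. Fyn is lowest in cKO 2 (-0.95) and highest in WT 2 (0.63), and Cd3d and Lat go the other way in these 2 libraries.

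Of the kinases, Lck and Fyn had the widest spread over the libraries of the 9 genes, and Zap70 the narrowest. Lck, the Src-family kinase bound to the CD4 coreceptor, stood at 2155, 1423 and 1875 FPKM in the cKO libraries, against 1643, 2327 and 1176 FPKM in the WT libraries. Both the highest and the lowest value were in libraries labelled WT, so the WT group spanned the whole cKO group. Its log2 difference came to 0.12, standard error 0.287 (limma, adjusted p = 0.977).

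Fyn, the second Src-family kinase of T cells, had the widest spread, at 193, 84.2 and 206 FPKM in the cKO libraries, against 132, 254 and 170 FPKM in the WT libraries. Its highest value was 3.01 times its lowest. Of the genes averaging 100 FPKM or more, 5.65% had a ratio at least as large, and the median ratio was 1.51. The log2 difference of -0.25 (limma, adjusted p = 0.962) was 0.16 without cKO replicate 2, 0.00105 without WT replicate 2 and 0.41 without replicate 2 of both groups, so its direction rests on cKO 2 and WT 2.

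Zap70, the Syk-family kinase that docks on the phosphorylated chains, was the steadiest, with its highest value 1.18 times its lowest. It stood at 351, 298 and 352 FPKM in the cKO libraries, against 345, 352 and 305 FPKM in the WT libraries. The group means, 334 ± 31.1 and 334 ± 25.2 FPKM (SD, n = 3 each), were nearly equal, and 91.3% of the genes at or above 100 FPKM had a wider ratio or the same.

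The adaptors overlapped between groups as well. Lat, the membrane scaffold, stood at 596, 692 and 758 FPKM in the cKO libraries, against 604, 527 and 670 FPKM in the WT libraries. WT 2 was lowest and cKO 3 highest, with a log2 difference of 0.18 (limma, adjusted p = 0.925). Lcp2, which Zap70 phosphorylates and which joins Lat through Grap2, stood at 536, 458 and 480.0 FPKM in the cKO libraries, against 415, 548 and 331 FPKM in the WT libraries. As with Lck, the WT libraries held both extremes, and the log2 difference was 0.21 (limma, adjusted p = 0.933). In the annotation 282 exon bases of Lcp2 overlap 4930469K13Rik on the opposite strand, listed at a mean of 1.79 FPKM.

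**Figure D3:**
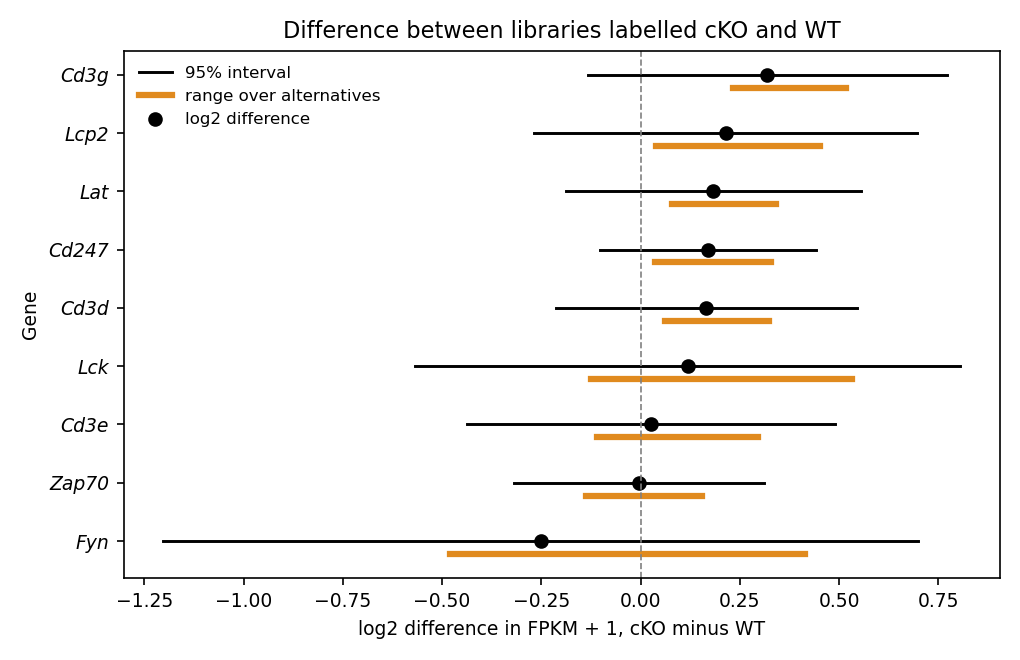
Log2 difference in FPKM + 1, cKO minus WT, for each gene. Points are the estimates, black lines the 95% intervals and orange bars the range of the estimate over 19 alternatives; each black line crosses 0, and the orange bars of Cd3e, Lck, Zap70 and Fyn do too.

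In Fyn and Zap70 the lowest and highest values were those of cKO 2 and WT 2. Cd3e was lowest and Cd3d highest in cKO 2, while Lck and Lcp2 were highest and Lat lowest in WT 2. Only Cd3g and Cd247 had both extremes in other libraries. WT 2 exceeded cKO 2 by 1.58 in Fyn, 0.71 in Lck and 0.51 in Cd3e on the log2 scale, while cKO 2 exceeded WT 2 in Lat and Cd3d, by log2 values (WT 2 minus cKO 2) of -0.39 and -0.37. Cd247 and Cd3g differed little between these libraries, by -0.01 and 0.08. The same 2 libraries differed by transcript length over all genes. The median of WT 2 minus cKO 2 was -0.17 over the 2873 genes with the shortest transcripts (median transcript up to 727 bases) and 0.20 over the 2865 genes with the longest (over 2121 bases). Cd3d has the shortest median transcript of the 9, at 299 bases, and Fyn the longest, at 2114 bases. Fyn's length still falls among the 2868 genes of 1141.5 to 2121 bases, where the median of WT 2 minus cKO 2 was 0.008. Lck, at 693.5 bases, falls among the shortest and was higher in WT 2. Lengths came from a later annotation than that of the values. With the length trend removed from each library, a correction chosen after the data were seen, the difference stayed at 1.49 in Fyn, 0.82 in Lck and -0.33 in Lat, and that of Cd3d turned to 0.45. The corrected value of Cd3d rests on the 299 bases taken as its length, the median of 3 annotated transcripts of 286 to 1617 bases. That length lies near the short end of the trend, and the result with another length was not tested. The cause of the difference between these libraries was not tested.

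Ratios within a library do not depend on scaling between libraries. Lck exceeded Fyn by 11.1, 16.9 and 9.11 times in the cKO libraries, against 12.4, 9.18 and 6.93 times in the WT libraries, with overlapping groups. Cd3g exceeded Cd3e by 14.1, 17.8 and 17.1 times in the cKO libraries, against 13.4, 13.2 and 13.2 times in the WT libraries. This ratio was higher in each cKO library than in any WT library, and the WT libraries hardly differed (13.3 ± 0.112, SD, n = 3) against 16.3 ± 2.0 (SD, n = 3) in cKO. It was the 1 ratio of 8 described whose groups did not overlap. Over all pairs of the 1353 genes averaging 100 FPKM or more with no value of 0, 11.7% of ratios had groups that did not overlap, so 1 in 8 is near that background. The other 5 ratios between CD3 chains overlapped.

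**Figure D4:**
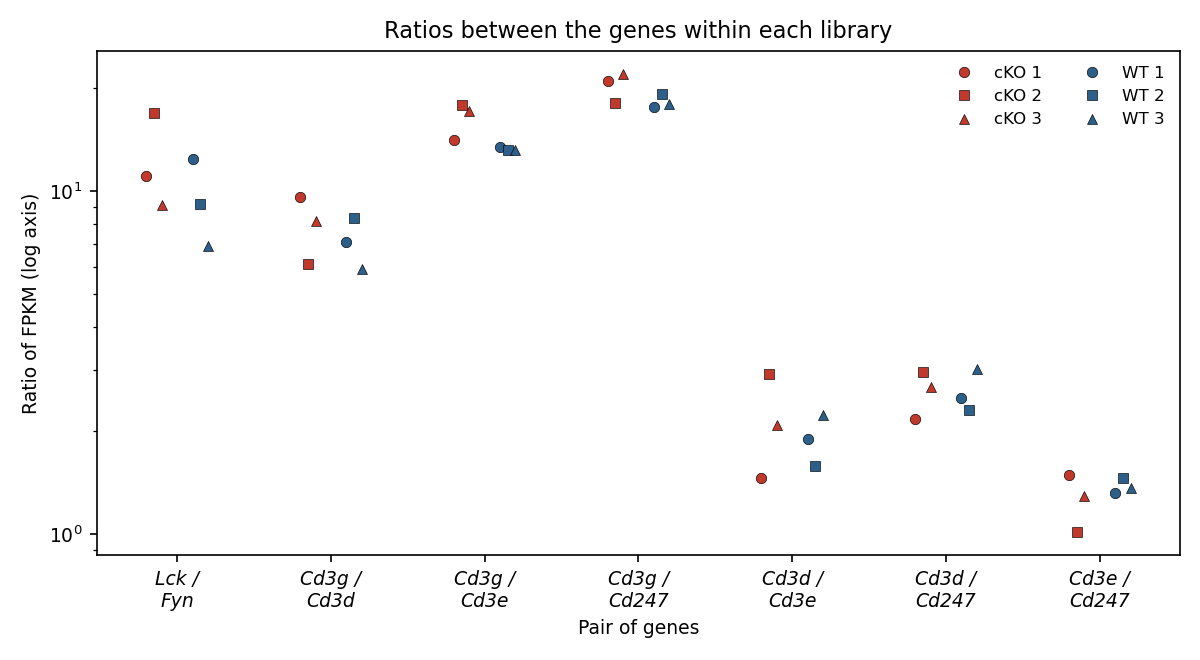
Ratio of FPKM values of 2 genes within each library (log axis), red for cKO and blue for WT, with the symbol giving the replicate number. The 3 WT points of Cd3g over Cd3e lie at 13.2 to 13.4, below the cKO points at 14.1 to 17.8, and all other pairs overlap.

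Genes that surround the proximal machinery were read from lists of receptor and surface genes, relay genes and brakes. Together they held 46 genes, of which 45 were tested and Sos1 was not. By limma 0 of 45 passed an adjusted p of 0.05, 2 reached an unadjusted p of 0.05, both higher in cKO, and 5 had groups that did not overlap, also higher. Over all genes tested those shares were 5.37% (3.59% higher) and 10.7% (6.96% higher), so the counts are near that background. Their median log2 difference was 0.02 against 0.03 over all genes.

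Among 9 receptor and surface genes the median log2 difference was 0.11, and 7 were above 0, beside 6587 of the 11979 genes tested. Trac, the constant region of the receptor's alpha chain, stood at 4611, 4251 and 4624 FPKM in the cKO libraries, against 3449, 3916 and 3264 FPKM in the WT libraries. Its groups did not overlap, with a log2 difference of 0.35 and a standard error of 0.156 (limma, adjusted p = 0.925). The beta chain constant regions Trbc1 and Trbc2 differed by -0.11 and 0.02 on the same scale; they are close in sequence, so reads may be split between them. The next genes by p were the adhesion receptor Cd2 at 0.22, the costimulatory receptor Cd28 at 0.14 and the inhibitory receptor Cd5 at 0.11, none past the threshold.

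Relay genes carry the signal on from Lat and Lcp2. Of 19 tested, 9 were above 0 and 10 below, with a median of -0.01. Themis, a T cell adaptor that binds phosphatases and tunes receptor signals, stood at 24.0, 20.2 and 24.1 FPKM in the cKO libraries, against 10.8, 16.3 and 15.9 FPKM in the WT libraries. Each cKO library was above each WT library, with a log2 difference of 0.65 and a standard error of 0.198 (limma, adjusted p = 0.874, unadjusted 0.0144). Txk, a Tec-family kinase, had a log2 difference of -0.40 (limma, adjusted p = 0.925), with values of 20.4 to 23.8 FPKM in cKO and 23.6 to 35.1 FPKM in WT that overlapped. Orai1, the pore of the store-operated calcium channel, differed by 0.25 and the adaptor Nck1 by 0.32, both with groups that did not overlap and neither past the threshold. Grap2, the adaptor that links Lat to Lcp2, lay between 2.60 and 3.39 FPKM in 5 libraries and at 7.60 FPKM in cKO 2.

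Brakes of receptor signalling showed as little. Of 17 tested, 10 were above 0, with a median log2 difference of 0.01. Dok1, an adaptor that limits Ras signalling, stood at 21.6, 32.9 and 25.6 FPKM in the cKO libraries, against 18.7, 18.3 and 17.4 FPKM in the WT libraries. The groups did not overlap, with a log2 difference of 0.51 and a standard error of 0.181 (limma, adjusted p = 0.915, unadjusted 0.0265). Its relative Dok2 differed by 0.30, the ubiquitin ligase Cbl by -0.38 and the lipid kinase Dgkz by 0.29, all with overlapping groups. Csk, the kinase that holds Lck inactive, differed by -0.09.

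**Figure D5:**
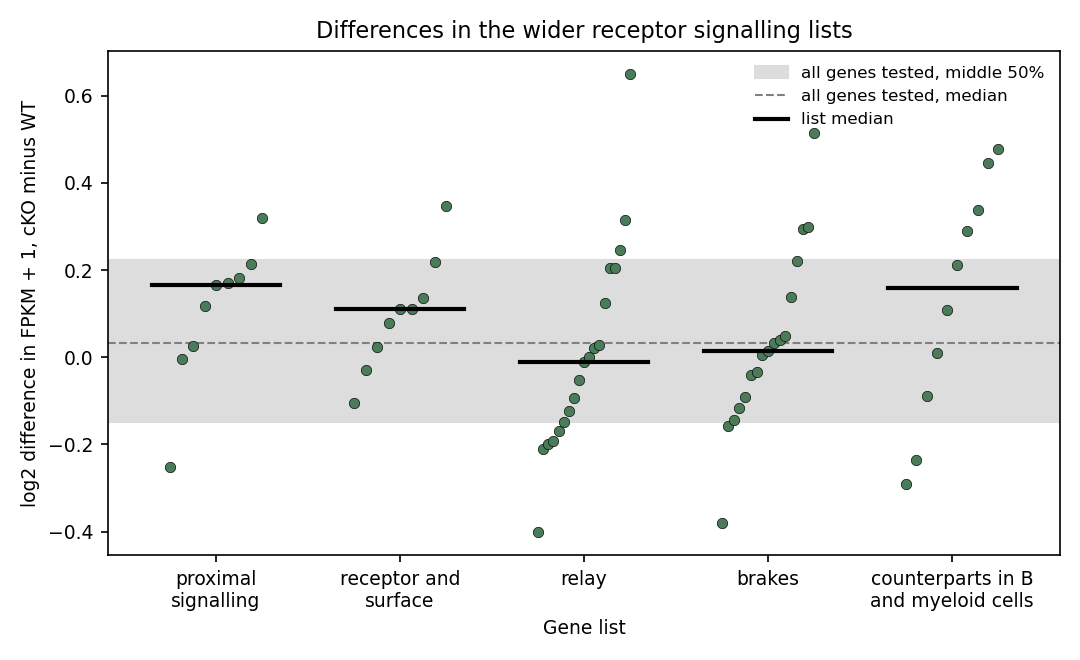
Log2 difference in FPKM + 1, cKO minus WT, of each tested gene in 5 lists, with the list median as a black bar. The grey band is the middle 50% of all genes tested (-0.15 to 0.22) and the dashed line their median (0.03); the list medians all lie inside the band.

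Other cells of the spleen use close relatives of the same machinery, and most of those listed stood lower. Zap70 exceeded its B cell and myeloid counterpart Syk by 158 to 380.0 times within a library, and Syk lay between 0.789 and 2.22 FPKM. The Src-family kinases Lyn, Blk and Fgr reached at most 9.74 FPKM (Lyn in cKO 1), the B cell linker Blnk 5.27 FPKM and the adaptor Lat2 6.96 FPKM. Of 10 such counterparts tested, 0 passed an adjusted p of 0.05 by limma and 0 an unadjusted p of 0.05, with a median log2 difference of 0.16. Fcer1g, the receptor gamma chain that pairs with Fc receptors, stood at 16.8, 19.5 and 21.2 FPKM in the cKO libraries, against 18.1, 11.6 and 12.3 FPKM in the WT libraries, a difference of 0.45 (limma, adjusted p = 0.925). Fgr differed by 0.48, Blk by 0.34 and Lat2 by -0.29. Cd79b, the immunoglobulin beta chain of the B cell receptor, stood higher, at 80.5 to 112 FPKM and above Fyn in cKO 2, with a log2 difference of 0.01.

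Summed over 7 B cell markers, levels ran from 123 to 163 FPKM in cKO and from 108 to 156 FPKM in WT, with Pax5 listed at 0 in cKO 3. The sum of 7 myeloid markers ran from 105.4 to 121 FPKM in cKO and from 61.2 to 105.2 FPKM in WT, so each cKO library was above each WT library, with Cd14 listed at 0 in WT 3. The sum of 6 CD8 and NK markers ran from 26.6 to 29.5 FPKM in cKO and from 26.9 to 31.6 FPKM in WT. Most of that sum was Cd8b1, at 18.8 to 22.4 FPKM. Of the 6 genes, 3 (Cd8a, Klrd1 and Ncr1) were listed at 0 in some library. Klrd1 reached at most 0.546 FPKM in cKO and was at least 1.35 FPKM in WT (limma, adjusted p = 0.874). Klrb1c, below the filter and not tested, reached at most 0.742 FPKM in cKO and was at least 0.866 FPKM in WT. Cd8a, Cd8b1, Ncr1 and Gzma had groups that overlapped. The sum of 4 erythroid markers ran from 129 to 277 FPKM in cKO and from 33.0 to 112 FPKM in WT, so each cKO library was above each WT library. The part of these other cells in the values of the 9 genes was not tested. In such bulk samples, fewer T cells and less RNA per T cell cannot be told apart.

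The mean of the 9 genes on the log2 scale was 9.44, 9.14 and 9.48 in the cKO libraries, against 9.17, 9.42 and 9.15 in the WT libraries. cKO 1, cKO 3 and WT 2 were high together and the other 3 libraries low, a grouping that crosses the labels. It was not shared by all 9 genes. Fyn deviated most from its own mean in cKO 2 (-0.949) and WT 2 (0.63). Cd3d and Lat went the other way there, with 0.206 and 0.12 in cKO 2 and -0.168 and -0.272 in WT 2. Among 6064 named genes at or above 10 FPKM, those most like this pattern included Arl6ip1, a membrane protein of the endoplasmic reticulum, with a Pearson r of 0.992 over the 6 libraries, the tetraspanin Tspan32 with 0.989, Actg1, the cytoplasmic gamma actin, with 0.987 and Plin3, a lipid droplet coat protein, with 0.986. Since 162 genes had an r over 0.9 across so few libraries, which also share their scaling, these values are a description only.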

How the data were processed

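The authors deposited 1 table of FPKM values, 36811 genes by 6 libraries, whose name gives cuffnorm as its source. Total RNA of the sorted cells was made into libraries by SmartSeq2, per the labels' protocols. The submitters' processing notes list HISAT2, cutadapt and FastQC, and NCBIM37 and mm9 as builds. For versions, annotation, strand setting and filters the sources used here give nothing.

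Of the gene identifiers, 31840 matched a symbol. The 11979 genes averaging 1 FPKM or more entered limma 3.58.1 (R 4.3.3), 3 libraries against 3, as log2(FPKM + 1) and with its variance trend switched on. Benjamini-Hochberg adjustment ran over all of them. On this scale, changes of low genes come out too small. Whole reads cannot be had from FPKM, so no count test was run. The procedure was run on simulated data with independent noise. The changes planted there were larger than any that the proximal signalling genes showed, and no length trend was included. That run thus says nothing on detecting differences as small as theirs. Tables were handled in pandas 2.3.3 and numpy 2.4.6 (Python 3.11.15), and plots drawn with matplotlib 3.10.9. Depth was estimated from the most common lowest value times length among genes with 1 transcript of at least 2000 bases. Transcript lengths came from GENCODE M21 (GRCm38), found for 95.7% of tested genes, and promoters from RefSeq (GRCm38.p6).

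The genes, lists and alternatives were chosen with earlier results of these data known. Named are the 9 genes, Bach2 and Foxp3, up to 4 genes of each wider list by smallest p and the 5 genes most like the 9. A few genes under these rules and lists are not reported here. Genes named outside that rule, such as Trbc1, Trbc2, Grap2, Csk, Syk and Cd79b, were chosen after their values were seen. The 19 alternatives were trimmed-mean, quantile and equal-sum scaling, pseudocounts of 0.1 and 5, a filter at 5 FPKM and none, library quality weights, a replicate block, a robust trend or none, each library left out in turn, replicate 2 of both groups left out, and a length correction added after seeing the data. The planned display of protein motifs was not made, since protein sequences were not used here.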

Additional observations from a re-analysis of the deposited data

How the results depend on the processing

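No gene of the 9 and none of the 4 wider lists passed the adjusted threshold (limma) in any of the 19 alternatives. Cd3g, Cd3d, Cd247, Lat and Lcp2 kept a positive log2 difference in each, Cd3g between 0.23 and 0.52, and the median over the 9 stayed between 0.04 and 0.32. Equal sums raised the median of all genes from 0.03 to 0.18 and gave 2 of the 9 at an unadjusted p under 0.05 (Cd3g and Cd247, smallest p 0.0169), library quality weights gave 1 (Cd3g), and leaving out replicate 2 of both groups gave 2 (Cd3g and Lcp2). The split of all genes at that level was 430 higher and 213 lower, 770 and 96 with equal sums, 341 and 277 after quantile normalization, 359 and 276 with trimmed-mean scaling, 360 and 280 after the length correction and 909 and 443 with library quality weights.

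In 4 genes the direction turned, with adjusted p of 0.76 or more where it did, and the cause was not tested. Cd3e was -0.073 after quantile normalization, -0.012 with trimmed-mean scaling, -0.034 after the length correction, 0.30 without replicate 2 of both groups and from -0.11 to 0.21 without 1 library. Zap70 was 0.15 with equal sums, 0.036 with library quality weights, 0.12 without replicate 2 of both groups and from -0.067 to 0.076 without 1 library. Fyn was 0.21 with the weights, 0.41 without replicate 2 of both groups and from -0.48 to 0.16 without 1 library. Lck ran from -0.13 to 0.37 without 1 library and was 0.53 without replicate 2 of both groups.

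The count of 3 genes called among all genes was 1 with the replicate block, from 5 to 15 without 1 library and 18 without replicate 2 of both groups; fewer libraries enter those fits. The block left 0 of the 9 genes called. Libraries of equal number had correlations of -0.06, -0.18 and -0.02, against up to 0.13 for other pairs. Each cKO library correlated best with a WT library of another number. The correlations are of deviations from group means, which sum to 0 over the 3 libraries of a group. They therefore depend on each other and cannot show whether libraries were prepared in pairs. By the estimate of about 140 fragments or more a value, depth limits the 9 genes little, but that estimate depends on the lengths used.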
